A study of Mus musculus with 2 samples.

Results

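Inhibitory checkpoint receptors restrain T cells after activation, and RNA from Th1 cells of WT and Chi3l1 KO mice was examined for 10 of these receptors and ligands out of 24421 genes listed. The 10 genes were chosen by symbol as Pdcd1, Ctla4, Lag3, Havcr2, Tigit, Btla, Cd160, Cd5, Cd200 and Cd274, and all 10 were listed in both libraries. Naïve CD4 T cells of C57BL/6J mice carrying Chi3l1+/+ or Chi3l1-/- were activated through CD3 and CD28 and skewed in vitro to Th1 with IL-12, IL-2 and anti-IL-4 antibody. There was 1 library for each genotype, the mice were young adults lacking Chi3l1 in all tissues, and the number of mice behind a library was not given in the sources used here. With n = 1 for each genotype, no difference below has a replicate check and no test was possible.

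Checkpoint receptors are induced by T cell receptor signaling and oppose it. PD-1 (Pdcd1) and BTLA recruit the phosphatases SHP-1 and SHP-2 to the T cell receptor and CD28, CTLA-4 competes with CD28 for CD80 and CD86, and LAG-3 binds MHC class II. TIGIT competes with the activating receptor CD226 for the poliovirus receptor family, and TIM-3 (Havcr2) is a marker of terminally differentiated Th1 cells. BTLA and CD160 share the ligand HVEM (Tnfrsf14). CD5 dampens T cell receptor signaling from the thymus onward, CD200 acts on the receptor CD200R1 of other cells, and PD-L1 (Cd274) is the ligand of PD-1 and a classical target of IFNγ.

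The deposited value of a gene is a log2 value that was read as log2 of a normalized read count plus 1, and a difference is the value of the library labelled KO minus that of the library labelled WT. Normalized counts summed to 68448996 in the library labelled WT and 60913079 in the library labelled KO, of which the ribosomal precursor Rn45s took 2.83% and 1.0%. Low values fell close to multiples of a step of 0.968 and 0.966, and approximate read numbers were rebuilt by dividing by these steps. Both libraries had the T cell markers Cd3e (14.94 and 14.86) and Cd4 (14.32 and 13.94) and the Th1 factor Tbx21 (13.98 and 13.71) at high log2 values, with Trac and Trbc2 among the 10 T cell markers not listed. Ifng, the signature cytokine of Th1 cells, had a log2 value of 11.72 in the library labelled WT and 13.04 in the library labelled KO, a difference of 1.32. Of 6 Th1 genes, 3 were higher and 3 lower in the library labelled KO. Past 2-fold, 1 was higher (Ifng) and 2 were lower, Cxcr3 (8.05 and 6.82) and Ccl5 (9.37 and 8.01). Among genes that reached log2 6 in either library, as all 6 did, the shares past 2-fold were 1.91% and 2.49%. Chil1, the symbol under which Chi3l1 is listed, went against the labels, with 1 rebuilt read in the library labelled WT and 103 in the library labelled KO. The values are per gene, so whether these reads lie outside the disrupted part cannot be seen, and Chil1 therefore does not check the labels. Every direction below rests on them.

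None of the 10 checkpoint genes differed by 2-fold or even 1.5-fold between the libraries. Over all 24421 genes, 10.5% were at or past 2-fold and 21% at or past 1.5-fold. Among the 8886 genes that reached log2 8 in both libraries, a class that holds 9 of the 10 checkpoint genes, these shares were 1.2% and 10.2%. Pdcd1, Ctla4, Btla, Cd200 and Cd274 were higher in the library labelled KO, and Lag3, Havcr2, Tigit, Cd160 and Cd5 were lower. The median difference of the 10 genes was 0.05, against 0 over all genes and -0.01 over the 8886 genes. The median size of the difference, whatever its sign, was 0.19 over the 9 expressed checkpoint genes and 0.23 over the 8886. Below, the interval beside a difference is a 95% exact binomial (Clopper-Pearson) interval from rebuilt reads, which covers counting error only and takes reads as independent molecules.

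Levels of different genes were compared as normalized counts per kilobase of the longest transcript, and in both libraries the checkpoint genes spanned a wide range. Cd5, Lag3 and Ctla4 formed a high group. In the library labelled WT, Cd5 had 10450.5 normalized counts per kilobase, Lag3 had 8909.9 and Ctla4 had 8405. In the library labelled KO, Ctla4 came first with 9417, followed by Lag3 with 8861 and Cd5 with 7263. Within this group the order turned between libraries, and the gap between Lag3 and Ctla4 was 1.06-fold in each, in opposite directions. This turn depended on the length used: with total exon length the order was Lag3, Ctla4, Cd5 in both libraries, and without length Cd5 came first in both. Each of the 3 genes was above at least 95.9% of the genes that reached log2 1 in the same library on this per-kilobase scale.

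Cd200 and Btla formed an intermediate group. Cd200 had 2015 and 2299 normalized counts per kilobase in the libraries labelled WT and KO, and Btla had 1442 and 1752. Pdcd1 followed with 431 and 494, so that Ctla4 stood 19.5-fold above it in the library labelled WT and 19.1-fold in the library labelled KO. Tigit had 364 and 324, Cd274 had 154 and 167, and Cd160 had 138 and 112. In the library labelled WT, Pdcd1 was above 63.0% and Cd160 above 43.3% of the genes that reached log2 1, a count that leaves out genes at 0. Havcr2 came last with 3.55 and 3.19 normalized counts per kilobase, 38.9-fold and 35.2-fold below Cd160. On this scale the places from the fourth to the last were the same in both libraries, which also depended on the length used. With total exon length, Cd200 was above Btla in the library labelled WT and below it in the library labelled KO. Without length, Cd200 and Btla changed places between the libraries, as did Cd160 and Tigit.

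**Figure D1:**
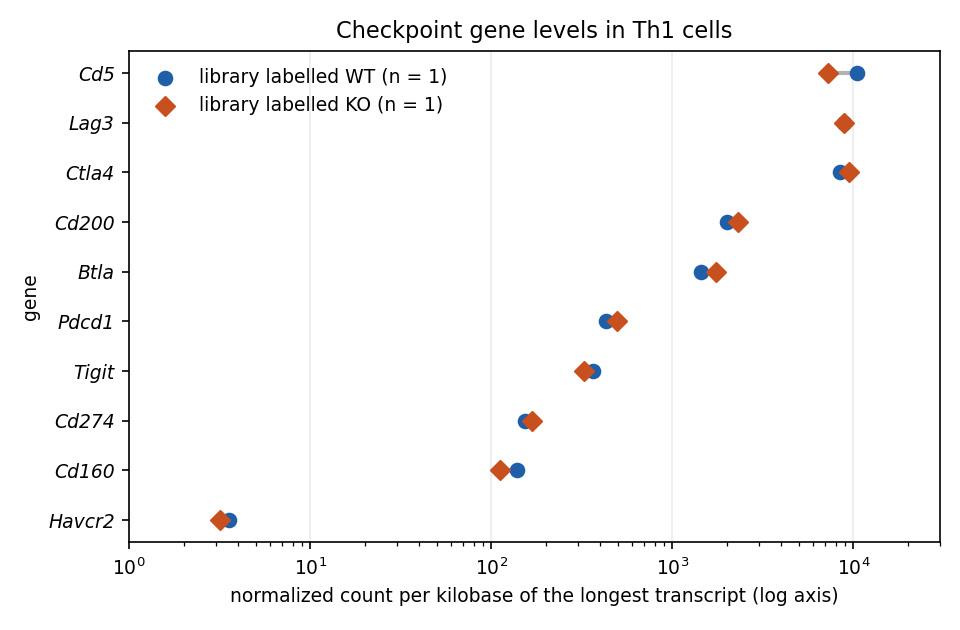
Level of each checkpoint gene in normalized counts per kilobase of the longest transcript (log axis) in the library labelled WT (circles) and the library labelled KO (diamonds), n = 1 each. The genotypes lie close together on every row, while the genes range from 3.55 for Havcr2 to 10450.5 for Cd5 in the library labelled WT.

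Among the receptors related to CD28, Pdcd1 (chromosome 1, 94038305 to 94052553, GRCm38, minus strand) had a log2 value of 9.70 in the library labelled WT and 9.90 in the library labelled KO, from 860 and 987 rebuilt reads. The difference was 0.20, with a counting interval from 0.06 to 0.33. PD-1 transcripts were thus present in both cultures, and 57.6% of the 8886 genes differed at least as much. Ctla4 (chromosome 1, 60887000 to 60915832, plus strand) had log2 values of 13.99 and 14.15. Its difference of 0.16 had a counting interval from 0.13 to 0.19, and 64.0% of the 8886 genes differed as much or more. Btla (chromosome 16, 45224315 to 45257670, plus strand) had log2 values of 12.20 and 12.48, and its difference of 0.28 was the largest among the checkpoint genes that were higher in the library labelled KO. This size was reached by 42.2% of the 8886 genes.

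Lag3 (chromosome 6, 124904361 to 124911705, minus strand), a relative of CD4, had log2 values of 14.12 and 14.11 in the libraries labelled WT and KO. Its difference of -0.01 had a counting interval from -0.04 to 0.02, from 18418 and 18354 rebuilt reads, and 98.5% of the 8886 genes differed at least as much. Cd4, which lies 16.1 kb away and encodes the other receptor of MHC class II in this locus, differed by -0.37. Per kilobase, Lag3 exceeded Cd4 1.36-fold in the library labelled WT and 1.75-fold in the library labelled KO. In the library labelled WT this rested on the length. Not divided by length, the normalized count of Lag3 there was 17828.8, below 20409.2 for Cd4. In the library labelled KO it was 17730.2 against 15748.3.

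Havcr2 (chromosome 11, 46454935 to 46481255, plus strand) had log2 values of 3.42 and 3.27, from 10 and 9 rebuilt reads. TIM-3 transcripts were therefore close to the limit of these libraries, in which a count of 0 allows up to 3 reads, a log2 value of 1.96. The counting interval of the ratio ran from -1.63 to 1.30 on the log2 scale, which holds no difference as well as 2-fold in both directions, so that differences up to these bounds could not be resolved at this depth. Lgals9, a ligand proposed for TIM-3, had log2 values of 14.25 and 14.00. Its difference of -0.25 was below 1.5-fold.

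Tigit (chromosome 16, 43648867 to 43664146, minus strand) had log2 values of 8.39 and 8.22, a difference of -0.17 with a counting interval from -0.39 to 0.06. This interval holds no difference. Cd160 (chromosome 3, 96798763 to 96829351, minus strand), a receptor that can be anchored by GPI, had log2 values of 8.49 and 8.19, a difference of -0.30 with a counting interval from -0.53 to -0.08. Exons of Pdzk1, on the opposite strand, overlap those of Cd160, and whether the counting used strand was not given in the sources used here. Pdzk1 had log2 values of 7.85 and 8.23. If strand was not used, reads in the overlapping exons could not be told apart, so the difference of Cd160 is uncertain.

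Cd5 (chromosome 19, 10717116 to 10739002, minus strand) had the largest difference of the 10 genes. Its log2 value was 14.93 in the library labelled WT and 14.41 in the library labelled KO, a difference of -0.53, or 1.44-fold lower, with a counting interval from -0.55 to -0.50. A difference of this size or more was found in 14.1% of the 8886 genes. Cd6, the scavenger receptor relative of CD5 encoded 50.3 kb away, differed more, with log2 values of 15.17 and 14.52 and a difference of -0.65, which is past 1.5-fold. The level of Cd5 per kilobase was 0.85 of that of Cd3e in the library labelled WT and 0.62 in the library labelled KO.

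The ligands differed little. Cd200 (chromosome 16, 45382135 to 45409053, minus strand) had log2 values of 12.21 and 12.40, a difference of 0.19 with a counting interval from 0.13 to 0.25. It lies 124 kb from Btla, which was also higher in the library labelled KO, by 0.28. Cd274 (chromosome 19, 29367455 to 29388095, plus strand) had log2 values of 9.13 and 9.24, and the interval of its difference of 0.11 ran from -0.05 to 0.28. Ifng, whose product induces PD-L1, was 2.50-fold higher in the library labelled KO, and Cd274 was 1.08-fold higher. A relation between these values was not tested. The annotation places exons of AC119228.1 over those of Cd274 on the opposite strand, which makes its value uncertain in the same way.

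**Figure D2:**
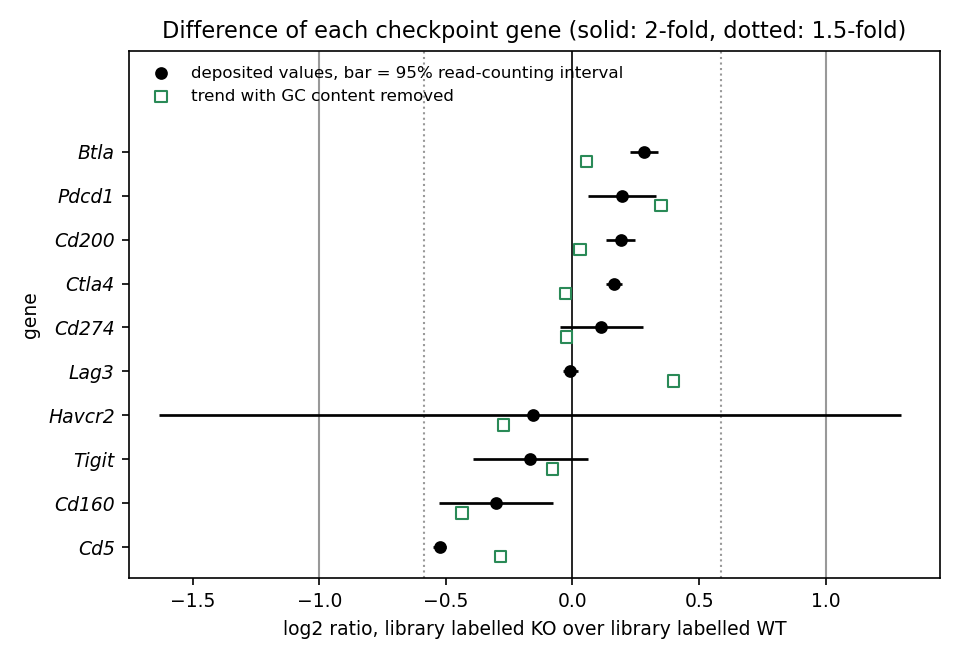
Log2 ratio of the library labelled KO over the library labelled WT for each checkpoint gene, with the 95% exact binomial interval of the rebuilt reads (black) and the value after removal of the trend with GC content (open squares), n = 1 each. Every point lies inside the dotted 1.5-fold lines, Cd5 is closest to them at -0.53, and the bar of Havcr2 crosses both 2-fold lines.

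The differences between these libraries followed the GC content of the transcripts. Over 8580 of the 8886 genes, those with an annotated transcript, Spearman's rho between the GC content of the longest transcript and the difference was -0.53, given as a description because genes share both libraries and are not replicates. The median difference was 0.23 in the bin of lowest GC content and -0.45 in that of the highest. Btla, with 40.7% GC, had a difference of 0.28, and the trend at its GC content was 0.22. For Ctla4 (42.6% GC) the difference was 0.16 and the trend 0.19, for Cd200 (44.4%) 0.19 and 0.16, and for Cd274 (44.9%) 0.11 and 0.14. These 4 AT-rich genes lay on the trend, and after its removal their differences were between -0.03 and 0.06.

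Other checkpoint genes lay off the trend. Lag3 has the highest GC content of the 10, at 59.9%, where the trend was -0.41, so that its deposited difference of -0.01 became 0.40. Pdcd1 (54.6% GC) went from 0.20 to 0.35, and Cd160 (45.1% GC) from -0.30 to -0.44. Cd5 (56.8% GC) went from -0.53 to -0.28. With the trend removed, Cd160 and Lag3 had the largest differences in place of Cd5, and none of the 10 reached 1.5-fold. Removal made differences smaller in general. The median size was 0.23 over the 8886 genes before it and 0.18 after it over those with a transcript. The share of genes past 1.5-fold after removal was not counted. The trend was measured, while its part in the difference of any single gene was not tested.

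**Figure D3:**
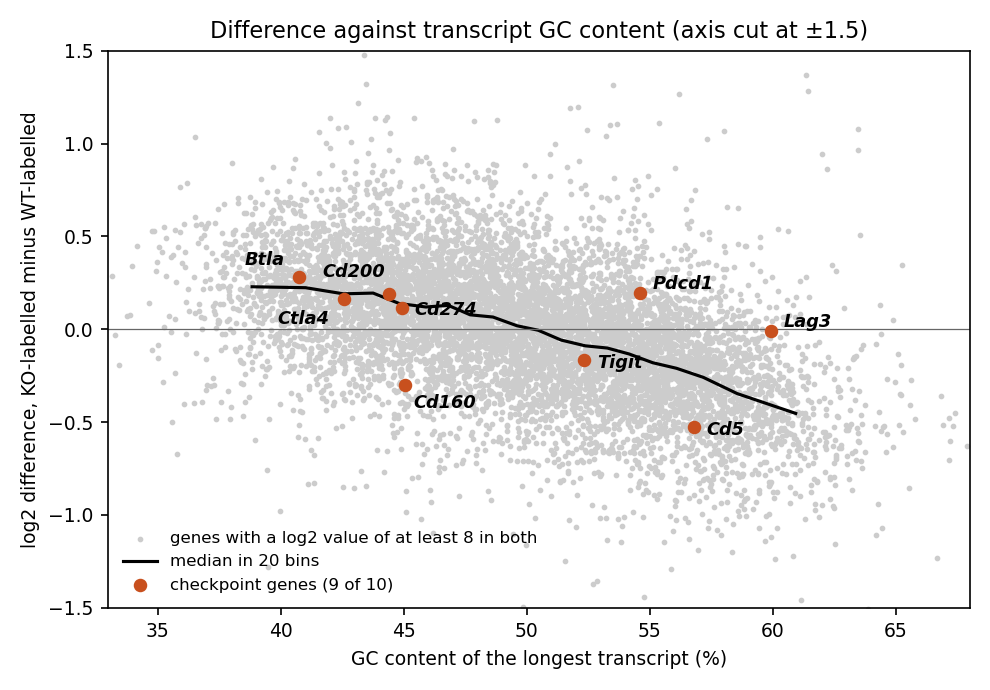
Difference between the libraries (log2, KO-labelled minus WT-labelled) against GC content of the longest transcript for genes that reached log2 8 in both libraries (gray), with the median in 20 bins (black line) and the 9 checkpoint genes of this class (orange). Btla, Ctla4, Cd200 and Cd274 lie on the line, Lag3 and Pdcd1 above it, and Cd160, Cd5 and, by less, Tigit below it.

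Binding partners of the checkpoint receptors were examined as a list of 17 genes, of which 0 were at or past 2-fold higher and 2 were at or past 2-fold lower in the library labelled KO, against 4.7% and 5.81% of all genes. The median of the list was 0.00. Among genes that reached log2 6 in either library, 1 of 13 partners was lower, against 2.49%, and 0 were higher, against 1.91%. At 3-fold, 1 of the 17 partners was lower and 0 were higher, against 3% and 2.35% of all genes. Nectin2, listed as Pvrl2 and encoding a partner of TIGIT and CD226, had log2 values of 6.671 and 4.998, from 104 and 32 rebuilt reads. Its difference was -1.67, with a counting interval of the ratio from -2.32 to -1.12. Cd200r1, the receptor of CD200, had log2 values of 5.96 and 4.81, from 63 and 28 rebuilt reads. Its difference was -1.15, with a counting interval of the ratio from -1.87 to -0.51. Per kilobase, Cd200 exceeded its receptor 91.3-fold in the library labelled WT and 235-fold in the library labelled KO.

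None of the other partners was at or past 2-fold. At 1.5-fold, 2 of the 17 partners were higher, H2-Eb1 and H2-Aa, against 9.6% of all genes. With Nectin2 and Cd200r1, 3 were lower, against 11.4%, and the third was Ceacam1, with log2 values of 7.85 and 7.06. Pvr, the main ligand of TIGIT, differed by -0.06, and Tnfrsf14, the ligand of BTLA and CD160, by -0.21. Pdcd1lg2, which encodes PD-L2 and lies 22.8 kb from Cd274, differed by -0.31. Per kilobase, its transcripts exceeded those of Cd274 2.82-fold in the library labelled WT and 2.10-fold in the library labelled KO. The size of this excess rested on the length. Not divided by length, normalized counts of Pdcd1lg2 and Cd274 were 751.7 and 558.9 in the library labelled WT. In the library labelled KO they were 606.2 and 604.5. Of the ligands of CTLA-4, Cd80 had log2 values of 6.80 and 7.35, a difference of 0.55, and Cd86 differed by -0.04 at 5.17 and 5.12. The LAG-3 ligand Fgl1 was listed at 0 in both libraries. The MHC class II genes H2-Eb1, H2-Aa and H2-Ab1 differed by 0.94, 0.75 and 0.14, and because multiple alignments were counted, their reads may be shared among related genes.

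Of the activating counterparts, a list of costimulatory receptors and ligands, 0 of 11 were past 1.5-fold in either direction. The shares were 21% of all genes and 10.2% of the 8886, and the median of the list was -0.05. Cd28 differed by -0.02 and Icos by 0.07, and both lie in the locus of Ctla4 on chromosome 1, at 114 kb and 62.1 kb from it. Per kilobase, Ctla4 exceeded Cd28 3.44-fold in the library labelled WT and 3.93-fold in the library labelled KO. Tigit exceeded its competitor Cd226 4.55-fold and 4.29-fold. For Tigit this rested on the length, since its normalized count, not divided by length, was below that of Cd226, at 334.7 against 359.8 in the library labelled WT and 298.2 against 339.9 in the library labelled KO.

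Of 22 genes that carry the signals of inhibitory receptors, 0 were past 2-fold, against 10.5% of all genes, and the median was -0.09. All 22 reached log2 8 in both libraries, and 1.2% of the 8886 genes of that class were at or past 2-fold. Past 1.5-fold, 1 was higher and 1 was lower, against 9.6% and 11.4% of all genes. Among the 8886 genes, 10.2% were past 1.5-fold in either direction. Ptpn6 and Ptpn11, which encode SHP-1 and SHP-2, differed by 0.08 and 0.24. Ptpn2, a tyrosine phosphatase of cytokine signaling, was the higher gene with 0.64, and the adaptor Dok2 was the lower with -0.63. Both were named after their values were seen.

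Of 16 other inhibitory receptors, 1 was at or past 2-fold higher and 0 were lower, against 4.7% and 5.81% of all genes, and the median was -0.09. Among genes that reached log2 6 in either library, 1 of 9 of these receptors was higher, against 1.91%, and 0 were lower, against 2.49%. The higher gene was Cd22, with log2 values of 9.45 and 10.64 and a difference of 1.20. CD22 is best known from B cells, and the B cell markers moved with it. All 5 of them were higher in the library labelled KO, with a median difference of 0.89, and their summed normalized count went from 939 to 1731. Of the 11496 genes that reached log2 6 in either library, as all 5 did, 5665 were higher and 5826 lower. The T cell markers summed to 223829 and 214809 normalized counts. B cells can also express Btla, Cd200, Cd274, Cd5 and MHC class II, and the part of B cells in these values was not tested. In bulk RNA, a change in the number of cells of a type and a change in RNA per cell cannot be told apart.

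**Figure D4:**
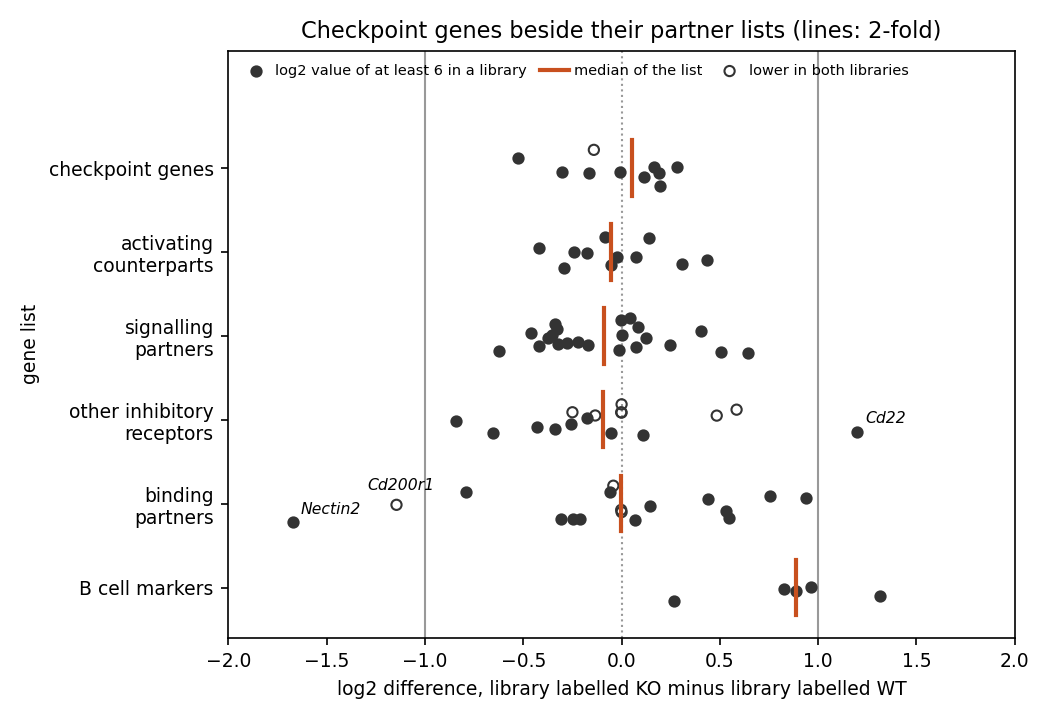
Difference between the libraries (log2, KO-labelled minus WT-labelled) for the 10 checkpoint genes, their partner lists and the B cell markers, with the median of each list (orange bar) and the 2-fold lines (gray). Filled points reached log2 6 in either library. Checkpoint genes and activating counterparts stay within -0.53 and 0.43, while Nectin2, Cd200r1 and Cd22 pass 2-fold, as does 1 B cell marker.

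Markers of other cells that carry checkpoint molecules were set beside these values. Over all 24421 genes, 7748 were higher in the library labelled KO, 8395 were lower and 8278 were equal. Of 4 regulatory T cell genes, 3 were higher in the library labelled KO, with Foxp3 at 10.94 and 11.66, and Lrrc32 was lower, at 9.62 and 9.23. Regulatory T cells are known for high Ctla4 and Tigit. Of the CD8 T cell genes, Cd8a differed by 0.60 and Cd8b1 by -0.47. Of 5 NK cell genes 3 were higher and 2 lower, with a summed normalized count of 222 and 296, and Ncr1 was at 0 in the library labelled WT. Of 6 monocyte or macrophage genes 1 was higher (Csf1r, by 0.83) and 4 were lower, with a summed normalized count of 687 and 550, Adgre1 at 0 in both libraries and Cd14 at 0 in the library labelled KO. Of 5 dendritic cell genes 3 were higher and 1 was lower (Itgax, by -2.91), with a summed normalized count of 73.6 and 122 and Siglech at 0 in both. Follicular helper genes, whose cells carry much PD-1, Btla and Cd200, were higher for 3 of 4. These were Cxcr5 at 8.15 and 9.22, Il21 at 9.35 and 9.86, and Sh2d1a at 9.35 and 9.85. The lower gene was Bcl6, at 9.66 and 9.45. The part of these cells in the checkpoint values was not tested. Th2 and Th17 cytokines were low, with Il4 at 0.94 and 3.28 and Il17a at 0 in both.

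Promoter sequence was available from RefSeq (GRCm38.p6) for 9 of the 10 genes, with Cd160 represented by 2 start sites. In the 250 bases before each start, the AP-1 letters TGANTCA were found on either strand in 6.75% of 32851 windows and in 1 of the 10 windows of checkpoint genes, that of Havcr2. The NFAT core GGAAA was found in 55.6% of all windows and in 5 of these 10, namely Ctla4, Pdcd1, Tigit, Cd274 and an inner start of Cd160. Such matches describe letters and not occupied sites. The window of Havcr2 is shown with its AP-1 letters in capitals, as the only AP-1 match among them.
Havcr2, chr11:46454681-46454930, plus strand: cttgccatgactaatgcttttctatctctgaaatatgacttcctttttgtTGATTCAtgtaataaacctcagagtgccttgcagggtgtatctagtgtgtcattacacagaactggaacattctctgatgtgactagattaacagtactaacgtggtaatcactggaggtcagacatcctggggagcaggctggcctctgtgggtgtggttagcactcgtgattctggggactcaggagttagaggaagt
The AP-1 letters of Havcr2 begin at position -200 from its start.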

How the data were processed

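RNA sequencing of 1 library labelled WT Th1 and 1 library labelled KO Th1 was analysed, with groups taken from the sample titles. Naïve samples were not analysed here. The authors prepared poly(A) libraries that were sequenced from both ends, mapped reads with TopHat to mm10 and counted unique as well as multiple alignments and compared them with edgeR, as the methods and the submitters' processing notes state. The deposited value per gene is on a log2 scale and was read from its low values as log2 of a normalized count plus 1. After undoing this, 99.97% and 99.93% of values under 25 lay within 0.1 of a whole multiple of the step. Genes at 1 rebuilt read had normalized counts from 0.92 to 0.96, a little under the step, so rebuilt read numbers are approximate.

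Differences were taken between deposited values, without a test because n = 1. The members and lists were chosen with earlier results of these data known. Named genes were the 10 members, Chil1, Ifng, direct partners, and list genes at or past 2-fold that reached log2 6 in either library. Other genes, among them Cd4, Cd6, Icos, Ptpn2, Dok2, Pdzk1, MHC class II and cell type markers, were named after their values were seen. Positions, lengths and GC content came from GENCODE M21 (GRCm38), the build the authors used, with a transcript for all 10 members and for 96.6% of genes that reached log2 8 in both libraries. The GC trend was the median difference in 20 bins. The alternatives were pseudocounts of 0.1 and 10, 4 other scalings or corrections, other lengths and other fold lines. Some planned items are not reported here. Scripts were tested on simulated data. Python 3.11.15 was used with scipy 1.17.1, matplotlib 3.10.9, pandas 2.3.3 and numpy 2.4.6.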

Additional observations from a re-analysis of the deposited data

How the results depend on the processing

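With pseudocounts of 0.1 and 10, scaling to Actb, quantile normalization, median-ratio scaling and removal of the GC trend, 0 of the 10 checkpoint genes were at or past 1.5-fold. For the deposited values this line was reached by 21% of all genes and 10.2% of the 8886. The shares under the alternatives were not counted, so these counts do not set the checkpoint genes apart from other genes. Pdcd1, Btla and Cd200 stayed higher and Tigit, Cd160 and Cd5 stayed lower in the library labelled KO under these alternatives. Lag3 and Havcr2 changed sign under quantile normalization, Lag3 when scaled to Actb, and Ctla4, Lag3 and Cd274 when the GC trend was removed. Scaling to Actb moved the median of the 10 genes to 0.17, while the median over the 8886 genes moved to 0.10. Removal of the GC trend took the median of the 10 genes to -0.03. In the order of levels, the members that kept their place were 4 of 10 in the library labelled WT with the shortest protein-coding transcript, and in the library labelled KO 6 with total exon length, 4 with the shortest transcript and 3 without length. Havcr2 was last in each of these orders.

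At or past 2-fold, 2 of 17 binding partners were lower and 0 higher, and 1 of 16 other inhibitory receptors was higher and 0 lower. Over all genes, 4.7% were higher and 5.81% lower. At 1.5-fold, 2 binding partners, 2 other inhibitory receptors and 1 signalling gene were higher, against 9.6% of all genes. At this line 3 binding partners, 2 other inhibitory receptors and 1 signalling gene were lower, against 11.4% of all genes. At 3-fold, 1 binding partner was lower, against 3% of all genes, and 0 other inhibitory receptors were higher, against 2.35%. Among genes that reached log2 6 in either library, 1 of 13 binding partners was at or past 2-fold lower, against 2.49%. In this class 1 of 9 other inhibitory receptors was at or past 2-fold higher, against 1.91%. No paired analysis was possible because each genotype has 1 library. Depth limits Havcr2, whose interval from -1.63 to 1.30 leaves differences within it unresolved.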
